A study of Rattus norvegicus with 8 samples.

Results

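Adipocyte markers, genes whose transcripts come mainly from fat cells, were followed across extraocular muscle, the small muscles that move the eye and lie embedded in the fat of the orbit. The set was chosen by gene symbol from a list of 8 genes: Adipoq, Cfd, Lep, Retn, Plin1, Lipe, Fabp4 and Pparg. Of these, 7 genes were matched to 9 probe sets among 31042 on the array, where 14217 gene symbols were represented in all. Retn, which encodes the adipokine resistin, was matched to no probe set and was not analysed here. Of the 9 probe sets, 8 (6 genes) passed a filter on low signal and were tested, and the single Lep probe set did not.

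Expression was measured on Affymetrix rat arrays in 8 adult Sprague-Dawley rats with an initial body weight of 200 ± 40 g, to learn how a chronic excess of thyroid hormone affects these muscles. Over 6 weeks the 4 hyperthyroid rats were given T3 (triiodothyronine, which binds the thyroid hormone receptors) intraperitoneally at 25 µg per 100 g on alternate days, and tissue was taken 24 hours after the last dose. The 4 control rats were untreated, and the labels mention no vehicle injection. Each array is 1 animal. Signals are listed below in a fixed order, first hyperthyroid 1, 2, 3, 5, then control 7, 8, 9, 11, numbered as the submitters numbered the arrays.

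Fat cells store triglyceride in a single large droplet coated by perilipin, release it as fatty acids through lipases under hormonal control, and secrete adipokines into the blood. The nuclear receptor encoded by Pparg directs their differentiation and switches on most of the other markers. In dissected muscle these transcripts are read as a measure of the fat that came with the tissue. In such bulk RNA, fewer fat cells and less RNA per fat cell cannot be told apart, nor can orbital fat be told from other fat by these genes.

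The array labelled hyperthyroid 5 went against its tissue label. Myh13, the myosin of extraocular muscle, read 4.17 there and 5430 to 9340 on the other 7 arrays, and the limb position gene Hoxa10 stood at 399 against at most 27.8. Differences between the groups are therefore given for 8 arrays and without it. Signals were on a common scale, with a trimmed mean of 150.1 on each array and medians of 47.8 to 58.5, in arbitrary units, so levels are compared between arrays for 1 probe set and not between genes.

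The promoters of the 3 markers that varied most closely together are shown here, taken from RefSeq (build GRCr8, rat), each on the minus strand and written in the gene's direction. Each window held the 250 bases before the start used in the promoter set. Bases of it within the annotated gene were left off, which removed 75 for Adipoq, 51 for Plin1 and none for Cfd. Capitals mark matches to the motifs CCAAT (or its complement on the other strand) and TTGCNNAA, the core recognised by C/EBP factors, which act with Pparg in fat cells.
Adipoq, chr11:91240245-91240419: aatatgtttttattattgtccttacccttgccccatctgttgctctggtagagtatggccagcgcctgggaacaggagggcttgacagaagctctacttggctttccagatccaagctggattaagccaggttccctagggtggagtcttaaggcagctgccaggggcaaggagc
Cfd, chr7:10465497-10465746: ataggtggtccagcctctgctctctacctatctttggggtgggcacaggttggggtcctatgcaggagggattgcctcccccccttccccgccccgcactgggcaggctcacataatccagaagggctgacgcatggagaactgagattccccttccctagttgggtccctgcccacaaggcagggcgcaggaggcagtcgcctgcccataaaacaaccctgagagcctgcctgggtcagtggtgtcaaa
Plin1, chr1:143086200-143086398: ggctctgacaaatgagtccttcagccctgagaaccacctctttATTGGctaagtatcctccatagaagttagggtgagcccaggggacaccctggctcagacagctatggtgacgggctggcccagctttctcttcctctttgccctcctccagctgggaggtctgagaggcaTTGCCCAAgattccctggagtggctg

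The printed part of the Plin1 promoter held 1 match to each of the 2 motifs, and the printed parts of the other 2 held none. The full Adipoq window held 2 CCAAT matches, at -69 to -65 (other strand) and -42 to -38 from the start that the window used. Both lie in the bases left off here, within the annotated gene. In the full windows of 250 bases, both strands searched, TTGCNNAA was found in 9.22% of 33469 rat promoters and CCAAT in 34.0%. The direct repeat of nuclear receptor sites, the element type bound by Pparg with its partner RXR, was in 0.0508% of all promoters and in none of these 3 windows. The single receptor site TGACCT was in 14.1% of all promoters and TATAAA in 12.9%, and neither was in these 3 windows. A missing match says only that these letters are absent from the window.

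Among the secreted products, adiponectin varied more among the hyperthyroid arrays than among the controls. Adipoq, which encodes this insulin-sensitising adipokine, read 161, 75.6, 713 and 1279 in hyperthyroid rats and 531, 476, 315 and 184 in controls. Hyperthyroid 1 and 2 lay below every control and hyperthyroid 3 and 5 above every control, so the groups overlapped fully. The log2 difference, hyperthyroid minus control, was -0.10 ± 0.74 (SE; adjusted p = 0.967 in limma), from mean signals of 557 ± 558 and 377 ± 158 (SD, n = 4 each). Without hyperthyroid 5 it was -0.76 ± 0.60 (adjusted p = 0.576).

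Cfd encodes adipsin, the complement factor D that fat cells release. Its signals were 226, 95.8, 1090 and 5675 in hyperthyroid rats, against 1074, 1039, 829 and 409 in controls. The order of the 8 arrays was the same as for Adipoq, from hyperthyroid 2 at the bottom to hyperthyroid 5 at the top. The highest signal was 59.2 times the lowest, the widest range of any marker, and 6.77 times the control mean on hyperthyroid 5. The log2 difference was -0.37 ± 0.98 (SE; adjusted p = 0.902 in limma) on 8 arrays and -1.45 ± 0.62 (adjusted p = 0.293) without hyperthyroid 5. It passed in 1 fit, which left out hyperthyroid 3 as well and so compared hyperthyroid 1 and 2 with the controls (-2.41, adjusted p = 0.0299 in limma). The share of all probe sets that passed in that fit is not given here, so the call is not shown to be particular to Cfd.

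Leptin, the adipokine that reports fat stores to the brain, was near the bottom of the scale. Lep read 3.98, 30.5, 3.19 and 18.3 in hyperthyroid rats, against 1.68 to 4.52 in the 4 controls. Its mean lay below the filter level of 28.2, and it was not tested. Its highest value fell on hyperthyroid 2, the array on which Adipoq, Cfd and Plin1 were lowest.

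**Figure D1:**
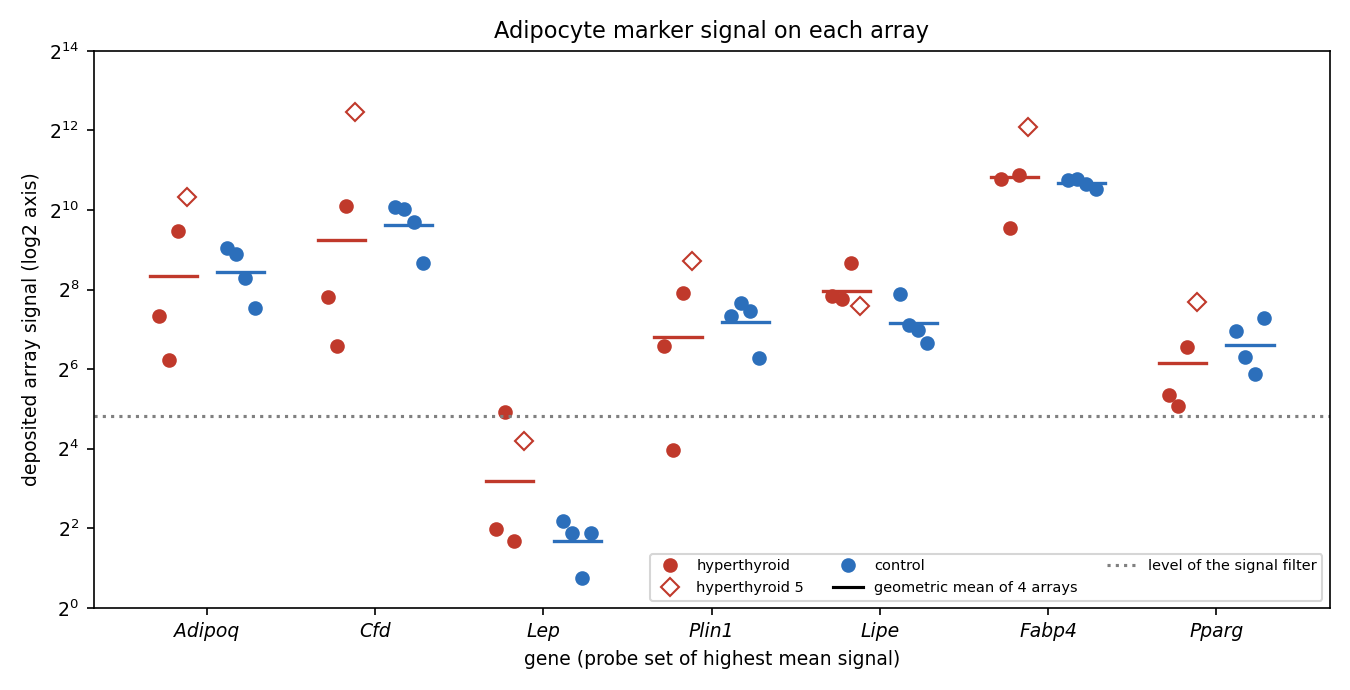
Deposited signal (log2 axis) of each adipocyte marker on each array, with hyperthyroid arrays in red, hyperthyroid 5 as an open diamond and controls in blue; short lines are geometric means of 4 arrays and the dotted line is the level of the signal filter (28.2). The Adipoq, Cfd and Plin1 points spread widely among hyperthyroid arrays, while the controls of Fabp4 lie between 1466 and 1766.

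Among the proteins of the lipid droplet, the brighter Plin1 probe set followed Adipoq and Cfd over the 8 arrays. The brighter Lipe probe set did so only in the order of the controls. Plin1 encodes perilipin 1, the droplet coat that gates lipolysis, and its brighter probe set read 95.1, 15.6, 243 and 424 in hyperthyroid rats and 161, 201, 177 and 77.5 in controls. Hyperthyroid 2 was the lowest array and hyperthyroid 3 and 5 were above all controls. Its log2 difference was -0.38 ± 0.81 (SE; adjusted p = 0.875 in limma), and -1.03 ± 0.71 (adjusted p = 0.516) without hyperthyroid 5.

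The dimmer Plin1 probe set read 34.1, 17.5, 111 and 146 in hyperthyroid rats and 69.5, 41.0, 23.8 and 61.9 in controls. It placed the same arrays at the ends. Its log2 difference was 0.30 ± 0.66 (SE; adjusted p = 0.879 in limma) on 8 arrays, of the other sign than the brighter probe set, and -0.16 ± 0.65 (adjusted p = 0.929), of the same sign, without hyperthyroid 5. The 2 probe sets correlated at r = 0.732 over 8 arrays (exact permutation p = 0.0298; rho = 0.690, exact permutation p = 0.0694), at r = 0.630 without hyperthyroid 5, and at r = 0.210 without the 2 arrays farthest from the median, so the relation rests on those arrays.

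Lipe encodes hormone-sensitive lipase, which cleaves stored fat and is also made in skeletal muscle. Its brighter probe set read 227, 216, 405 and 192 in hyperthyroid rats and 236, 138, 127 and 100.5 in controls. All 4 hyperthyroid arrays exceeded 3 of the 4 controls, and control 7 lay above hyperthyroid 1, 2 and 5. The log2 difference was 0.80 ± 0.30 (SE; unadjusted p = 0.0213, adjusted p = 0.353 in limma), from mean signals of 260 ± 97.5 and 150.5 ± 59.3 (SD, n = 4 each). It was 0.92 ± 0.31 (adjusted p = 0.195) without hyperthyroid 5.

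The dimmer Lipe probe set ran from 49.4 to 115 on hyperthyroid arrays and from 24.0 to 100.3 on controls, with a log2 difference of 0.48 ± 0.46 (SE; adjusted p = 0.698 in limma), and of 0.45 ± 0.50 (adjusted p = 0.703) without hyperthyroid 5. The sign was that of the brighter probe set, and neither passed. The 2 Lipe probe sets correlated at r = 0.482 (exact permutation p = 0.235; rho = 0.738, exact permutation p = 0.0458), at r = 0.487 without hyperthyroid 5, and at r = 0.655 without the 2 arrays farthest from the median.

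Fabp4 encodes the fatty acid carrier of fat cells, which capillary endothelium also makes. It read 1749, 747, 1876 and 4360 in hyperthyroid rats and 1710, 1766, 1613 and 1466 in controls. The 4 controls were close together, with hyperthyroid 1 among them, while hyperthyroid 2 was lower and hyperthyroid 5 higher than all. The log2 difference was 0.15 ± 0.39 (SE; adjusted p = 0.906 in limma), and -0.28 ± 0.26 (adjusted p = 0.636) without hyperthyroid 5.

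Pparg, the regulator of the fat cell programme, read 40.8, 33.5, 93.8 and 207 in hyperthyroid rats and 123, 79.4, 58.8 and 155 in controls. Hyperthyroid 1 and 2 lay below all controls. Among the controls its highest value fell on control 11, the array that was lowest for Adipoq, Cfd, Fabp4 and the brighter Plin1 probe set. The log2 difference was -0.44 ± 0.54 (SE; adjusted p = 0.768 in limma), and -0.95 ± 0.44 (adjusted p = 0.335) without hyperthyroid 5.

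No adipocyte marker passed the test of hyperthyroid against control rats. With the adjusted p set at 0.05, the limma fit passed 0 of the 8 tested probe sets, and 0% of all 18625. At an unadjusted p under 0.05 it counted 1 of 8, the brighter Lipe probe set, against 11.5% of all (6.25% higher and 5.30% lower). No member separated the groups without overlap (0 of 8, against 7.55% of all probe sets). The log2 differences were above 0 for 4 marker probe sets and below 0 for 4 (52.5% and 47.5% of all), with a median of 0.02 beside 0.03 over all probe sets.

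Without hyperthyroid 5 the count called was again 0 of 8 (0.156% of all probe sets), and at an unadjusted p under 0.05 it was 2 of 8 in limma, Lipe higher and Cfd lower (15.2% of all, 7.59% higher and 7.66% lower). The groups overlapped for all 8 (14.8% of all probe sets did not). Here 6 differences were below 0 and 2, both of Lipe, above 0 (45.8% and 54.2% of all), and the median was -0.52 beside 0.04 over all probe sets.

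**Figure D2:**
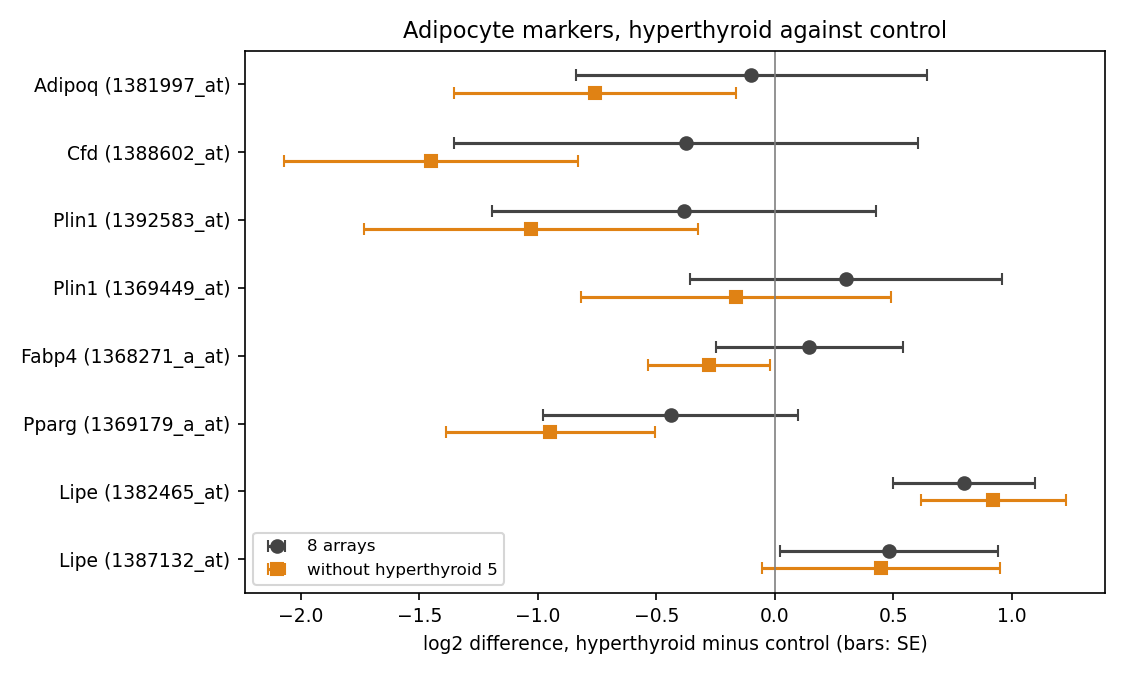
Log2 difference, hyperthyroid minus control, of the 8 tested probe sets with its standard error as bars, for all 8 arrays (circles) and without hyperthyroid 5 (squares). Both Lipe probe sets lie above 0 in each fit, and Cfd moves from -0.37 to -1.45 when hyperthyroid 5 is left out.

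Adipoq, Cfd and Plin1 were spread widely within the hyperthyroid group. The standard deviation of Cfd over the 4 hyperthyroid arrays was 2.60 on the log2 scale, and 0.499% of tested probe sets had one as large. The figures were 2.09 (1.21%) for the brighter Plin1 probe set, 1.88 (1.78%) for Adipoq, 1.20 (7.31%) for Pparg and 1.04 (9.86%) for Fabp4, beside a median of 0.39 over all tested probe sets. The brighter Lipe probe set had 0.48, a spread reached by 38.4% of probe sets. These shares are descriptions, and the difference in spread between the groups was not tested.

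The spread was also wide without hyperthyroid 5. Over hyperthyroid 1, 2 and 3 the standard deviation was 1.78 for Cfd (2.08% of tested probe sets had one as large), 2.01 (1.30%) for Plin1 and 1.65 (2.66%) for Adipoq, beside a median of 0.33. Over the 4 controls it was 0.65 (17.1%) for Cfd, 0.62 (18.7%) for Plin1, 0.69 (15.0%) for Adipoq and 0.12 (90.5%) for Fabp4, beside a median of 0.32. Fabp4 was thus steadier among controls than most probe sets, and the other 5 genes were more variable than the median one.

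**Figure D3:**
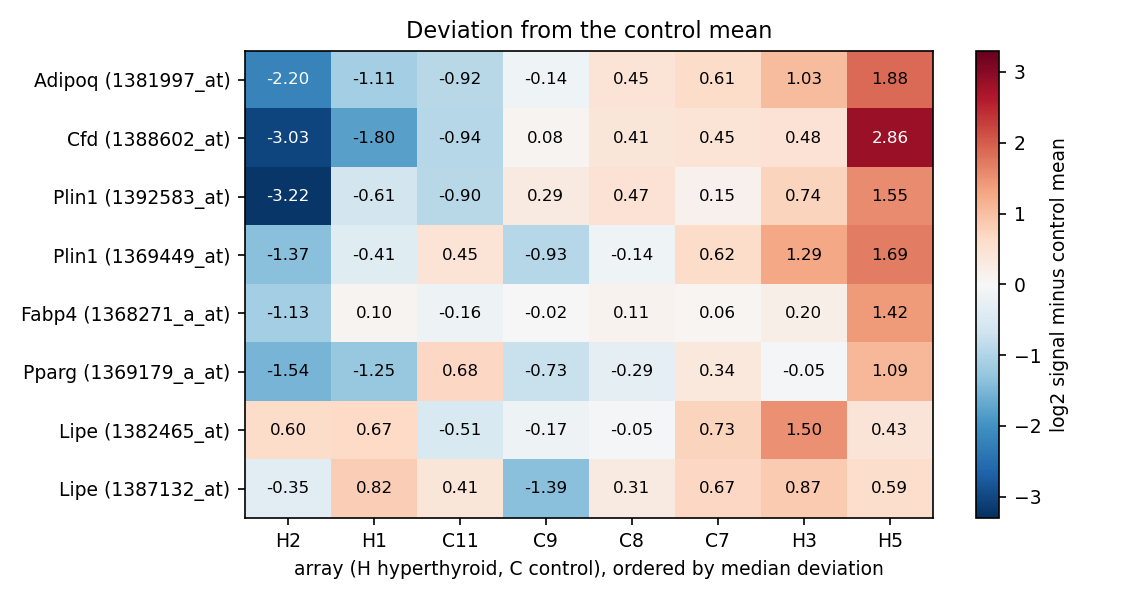
Log2 signal minus the mean of the 4 controls, for each tested probe set (rows) on each array (columns, ordered by the median over 6 genes). Adipoq, Cfd and the brighter Plin1 probe set run from blue on hyperthyroid 2 (-2.20, -3.03 and -3.22) to red on hyperthyroid 5 (1.88, 2.86 and 1.55), while the brighter Lipe probe set is above the control mean on all 4 hyperthyroid arrays.

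Relative to the control mean, the median over the 6 genes was -1.87 (log2) on hyperthyroid 2 and -0.86 on hyperthyroid 1. It was 0.61 on hyperthyroid 3, and 1.48 on hyperthyroid 5. Controls ran from -0.71 on control 11 to 0.40 on control 7. The median over all tested probe sets lay between 0.01 and 0.08 on the 8 arrays. On hyperthyroid 5 all 6 genes were above the control mean, by amounts that ranged from 0.43 for Lipe to 2.86 for Cfd. On hyperthyroid 2, Lipe was above it at 0.60 and the other 5 genes were below it.

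Across the 8 arrays Adipoq, Cfd, Plin1 and Fabp4 varied together. Adipoq and Cfd correlated at r = 0.971 and rho = 1 (exact permutation over 15 pairs of genes, Benjamini-Hochberg adjusted p = 0.000372 and 0.000744), and r was 0.930 without hyperthyroid 2 and 5, the arrays farthest from the Adipoq median. Adipoq and Plin1 correlated at r = 0.939 and rho = 0.905 (exact permutation, adjusted p = 0.00205 and 0.0171), with r = 0.914 without the same arrays. Cfd and Plin1 correlated at r = 0.926 and rho = 0.905 (exact permutation, adjusted p = 0.00521 and 0.0171), with r = 0.863 without them. Without hyperthyroid 5 alone, r for these 3 pairs was 0.966, 0.925 and 0.936 (exact permutation, adjusted p = 0.00298, 0.0164 and 0.0327).

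Of the 15 pairs among 6 genes, 7 passed by Pearson's r and 4 by Spearman's rho at an adjusted p under 0.05. The 10 pairs without Lipe had r between 0.659 and 0.971, and the 5 pairs with Lipe had r between -0.154 and 0.236, of which 0 passed. Among the 4 controls alone, the brighter Lipe probe set had the same order as Adipoq, from control 7 down to control 11, and the dimmer one did not. Among the hyperthyroid arrays neither had that order. For Fabp4 the relation leaned on the extreme arrays: with Cfd r was 0.906 (exact permutation, adjusted p = 0.0229) over 8 arrays and 0.354 without hyperthyroid 2 and 5. For Cfd and Pparg, r went from 0.793 (exact permutation, adjusted p = 0.0376) to 0.388 without these arrays, and the other Pparg pairs did not pass. Without them r of Pparg was 0.290 with Adipoq, -0.393 with Fabp4 and -0.067 with Plin1. Over the 4 controls alone it was -0.337 with Adipoq, -0.536 with Cfd, -0.461 with Fabp4, -0.778 with Plin1 and 0.043 with Lipe.

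The relations were also measured within the groups. With each group's mean removed, r was 0.974 for Adipoq and Cfd, 0.944 for Adipoq and Plin1 and 0.925 for Cfd and Plin1, and 5 of 15 pairs passed (exact permutation within groups). Leaving out hyperthyroid 1 and 2, an alternative added after the data had been seen, left 4 of 15 pairs.

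**Figure D4:**
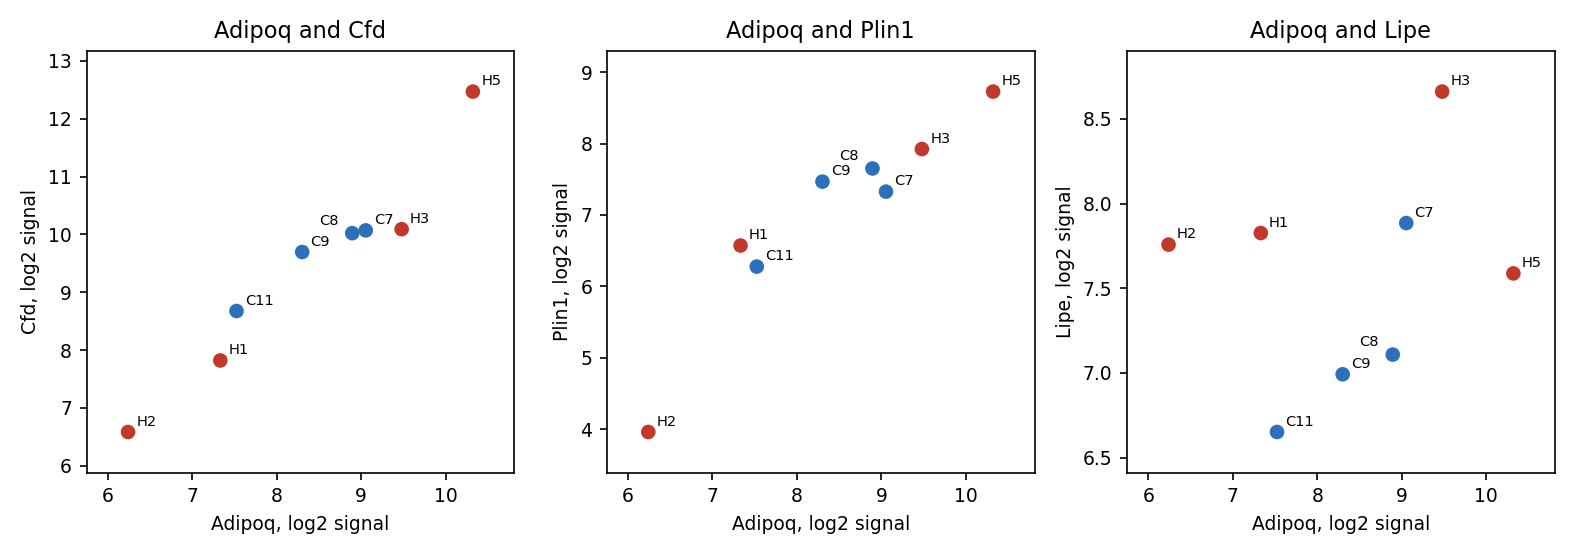
Log2 signal of Cfd, Plin1 and Lipe (brighter probe sets) against Adipoq on the 8 arrays, hyperthyroid (H) in red and control (C) in blue. Over 8 arrays Cfd and Plin1 climb with Adipoq (r = 0.971 and 0.939), while Lipe (r = 0.236) has the order of Adipoq among the controls and not among the hyperthyroid arrays.

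A measure of RNA integrity stood apart on 2 of the hyperthyroid arrays. Gapdh signal at the 3 prime probe set over that at the 5 prime one, a ratio which goes up as RNA is degraded, read 3.91 and 4.40 for hyperthyroid 1 and 2, the arrays with the lowest Adipoq and Cfd, and between 1.44 and 2.18 on the other 6. Because these 2 arrays stood apart, no correlation over all 8 is given. Over the other 6 arrays r with the log2 ratio was -0.120 for Adipoq and -0.464 for Cfd (exact permutation p = 0.867 and 0.354, adjusted over 6 genes 0.867 and 0.531; rho = 0.0857 for both, exact permutation p = 0.919, adjusted 1). With the 2 arrays farthest from the median of the ratio also left out, hyperthyroid 3 and 5, r was 0.603 and 0.557 over the 4 controls.

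With the log2 ratio as a covariate in limma, the log2 differences over 8 arrays were 1.32 for Adipoq (adjusted p = 0.225), 1.64 for Cfd (adjusted p = 0.134), 1.08 for the brighter Plin1 probe set (adjusted p = 0.440) and 0.51 for Pparg (adjusted p = 0.623). All 4 had been below 0 without the covariate, so the direction of these genes depends on it. Left out altogether, hyperthyroid 1 and 2 gave differences of 1.46 for Adipoq and 1.67 for Cfd (adjusted p = 0.412 and 0.447 in limma, 2 arrays against 4). The 2 hyperthyroid arrays left were 3 and 5, and hyperthyroid 5 went against its tissue label. Relative to the control mean (log2), Adipoq stood at 1.03 on hyperthyroid 3 and 1.88 on hyperthyroid 5, and Cfd at 0.48 and 2.86. The part of RNA integrity in the marker levels was not tested beyond these fits.

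**Figure D5:**
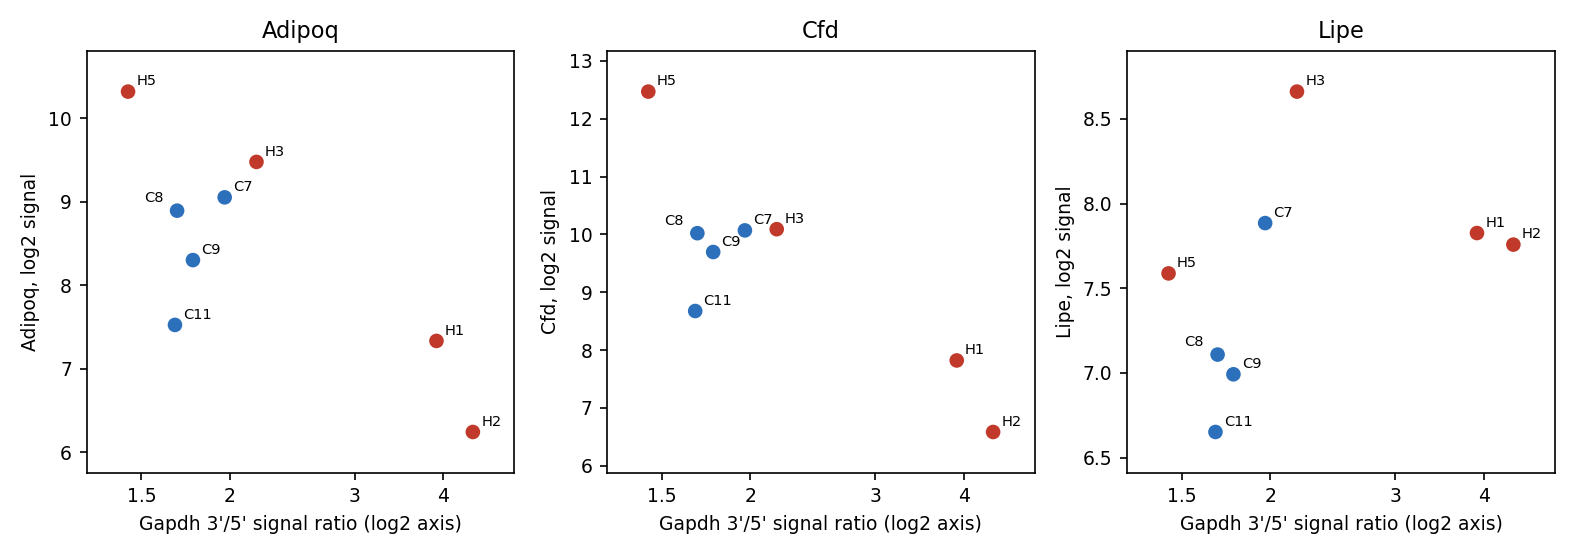
Log2 signal of Adipoq, Cfd and Lipe against the ratio of the Gapdh 3 prime to 5 prime probe sets (log2 axis), hyperthyroid (H) in red and control (C) in blue. Hyperthyroid 1 and 2 stand apart at ratios of 3.91 and 4.40 with the lowest Adipoq and Cfd, and the other 6 arrays lie between 1.44 and 2.18.

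Sex-linked transcripts differed on part of the arrays with low fat markers. Xist, made from the inactive X chromosome, stood at 367 on hyperthyroid 1 and 351 on control 11 and at no more than 44.5 elsewhere, and control 11 was the lowest control for Adipoq, Cfd and Plin1. Eif2s3y, a gene of the Y chromosome, went the other way, at 6.32 on hyperthyroid 1, 16.2 on control 11 and 533 to 927 elsewhere. Hyperthyroid 2, lowest of all in these fat markers, had Xist at 38.2 and Eif2s3y at 550. The part of sex in these levels was not tested.

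Other genes of the fat cell programme, 62 in 7 lists written with earlier results of these data known, gave 47 tested genes. In limma 0 of 47 passed at an adjusted p under 0.05 on 8 arrays, and 0 without hyperthyroid 5. At an unadjusted p under 0.05 in limma, 3 were higher and 3 lower on 8 arrays, where 6.25% and 5.30% of all probe sets fell. Without hyperthyroid 5, 3 were higher and 6 lower, beside 7.59% and 7.66% of all. Their median correlation with the mean standardised profile of the 6 markers was 0.368, beside 0.00572 over 10440 genes.

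In the list of lipid droplet and lipolysis genes, 4 of 11 tested genes were above 0 and 7 below, with a median of -0.23, and the counts were 4 and 7 (median -0.29) without hyperthyroid 5. Cidea, a droplet protein best known from brown fat, stood at -0.76 ± 0.30 (SE) and G0s2, an inhibitor of the main triglyceride lipase, at -0.63 ± 0.27 (adjusted p = 0.365 and 0.414 in limma). Plin3, a coat protein found in most tissues, stood at -0.34 ± 0.19. Without hyperthyroid 5 these 3 genes stood at -0.48, -0.85 and -0.44 (adjusted p = 0.326, 0.129 and 0.295).

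Cidec, the droplet fusion protein of white fat cells, was looked up after its values had been seen. It read 4.30, 7.19, 243 and 302 in hyperthyroid rats and 116, 189, 117 and 78.8 in controls. Hyperthyroid 1 and 2 were thus below every control and hyperthyroid 3 and 5 above, the arrangement seen for Adipoq. The list as a whole did not share it. Cidec correlated at 0.792 with the mean profile of the 6 markers over 8 arrays, beside a median of 0.198 over the 11 genes. The lowest value was -0.755 for Plin5 and the highest 0.797 for Aqp7. The log2 difference of Cidec was -1.62 ± 1.22 (SE; adjusted p = 0.621 in limma), and -2.61 ± 1.06 (adjusted p = 0.273) without hyperthyroid 5.

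Fatty acid uptake and triglyceride synthesis held 6 genes above 0 and 4 below (median 0.13) on 8 arrays, and 3 above and 7 below (median -0.15) without hyperthyroid 5. Dgat2, the enzyme of the last step of triglyceride synthesis, read 424, 286, 491 and 731 in hyperthyroid rats and 269, 235, 161 and 140.0 in controls. The groups did not overlap, and the difference of 1.23 ± 0.29 (SE; adjusted p = 0.232 in limma) did not pass. Lpin1, a phosphatidate phosphatase of the same pathway, stood at 0.94 ± 0.24 (adjusted p = 0.257) and Acsl1, which activates fatty acids, at 0.20 ± 0.13. Without hyperthyroid 5 these genes stood at 1.01 (Dgat2, adjusted p = 0.124), 0.81 (Lpin1, adjusted p = 0.150) and 0.17 (Acsl1). Their correlations with the marker profile were 0.559 for Dgat2 and 0.124 for Lpin1 over 8 arrays, and 0.185 and -0.405 without hyperthyroid 5.

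Fatty acid synthesis held 5 genes above 0 and 4 below (median 0.11) on 8 arrays, and 3 above and 6 below (median -0.16) without hyperthyroid 5. Scd, the stearoyl-CoA desaturase, read 318, 411, 1553 and 1535 in hyperthyroid rats and 251 to 409 in controls, high on the same 2 arrays as Adipoq (1.13 ± 0.47, adjusted p = 0.405 in limma; 0.78 ± 0.42, adjusted p = 0.404, without hyperthyroid 5). With the Gapdh ratio described above as a covariate, Scd passed over 8 arrays (2.03, adjusted p = 0.0414 in limma); its other adjusted p-values over the alternatives ran from 0.221 to 0.605. Acaca, the carboxylase of the first committed step, stood at 0.50 ± 0.35, and at 0.31 without hyperthyroid 5. Thrsp, a thyroid hormone responsive gene of lipogenic tissue, stood at -0.93 ± 0.91, with 4764 on control 11 against 79.1 to 1028 on the other 7 arrays. Its difference was -0.015 without control 11, -0.17 without hyperthyroid 2 and -1.41 without hyperthyroid 5.

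Of 7 adipogenic transcription factors tested, 3 were above 0 and 4 below (median -0.06; 3 and 4, median -0.10, without hyperthyroid 5). Klf15, which acts in both fat and muscle, read 410 to 538 in hyperthyroid rats and 587 to 693 in controls, without overlap, and its difference of -0.50 ± 0.14 (SE) did not pass (adjusted p = 0.283 in limma). Ebf1 stood at 0.34 ± 0.22 and Zfp423 at -0.29 ± 0.23. Without hyperthyroid 5, Klf15 stood at -0.45 (adjusted p = 0.180), Ebf1 at 0.19 and Zfp423 at -0.10. Among 6 other secreted products, 2 were above 0 and 4 below (median -0.21; 2 and 4, median -0.43, without hyperthyroid 5), with Rbp4, the retinol carrier, at -1.50 ± 1.25, Angptl4, an inhibitor of lipoprotein lipase, at 0.92 ± 0.80 and Nampt at -0.27 ± 0.28. Without hyperthyroid 5 they stood at -2.20, 0.50 and -0.56. Leaving out hyperthyroid 2 gave 0.17 for Rbp4 and 1.87 for Angptl4, and leaving out hyperthyroid 1 gave 0.37 for Angptl4.

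In the list of hormone receptors and insulin response genes 2 were tested, with Slc2a4, the insulin-regulated glucose transporter also abundant in muscle, at 0.06 ± 0.13 and Insr, the insulin receptor, at 0.00440 ± 0.28 (log2 ± SE), and at 0.10 and 0.050 without hyperthyroid 5. Both signs turned with median centring (-0.06 and -0.11). The adiponectin receptors Adipor1 and Adipor2 stood at -0.19 ± 0.15 and -0.28 ± 0.25 (-0.24 and -0.45 without hyperthyroid 5), and Lepr, the leptin receptor, was below the filter. Of 6 brown fat genes, 4 were below the filter, including Ucp1, the uncoupling protein that defines brown fat, at 1.40 to 45.9. The other two were Zic1 at -0.47 ± 0.77 and Ppargc1a at -0.46 ± 0.30 (-0.71 and -0.11 without hyperthyroid 5).

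The genes most like the markers were found by correlating each gene with the mean standardised log2 profile of the 6 tested markers. The 10 highest over 8 arrays were Prkar2b (r = 0.982), Srpx (0.979), Elf2 (0.960), Phyhd1 (0.956), Dusp23 (0.948), Bloc1s5 (0.946), Rexo1 (0.935), Arhgef10l (0.935), Steap4 (0.931) and Pygl (0.930). They were picked from 10440 genes for this value, so it has no test. Of the 47 tested genes of the 7 fat lists, 0 were among the first 10, 1 among the first 30 and 2 among the first 100. Of the 10, 3 were also among the first 10 without hyperthyroid 5, namely Prkar2b (r = 0.979), Srpx (0.972) and Steap4 (0.957), and all 10 were among the first 100.

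Prkar2b, the regulatory subunit of protein kinase A that predominates in fat, read 137, 51.9, 293 and 654 in hyperthyroid rats and 309, 239, 211 and 133 in controls. Steap4, a metalloreductase abundant in adipose tissue, ran from 424 on hyperthyroid 2 to 1581 on hyperthyroid 5, with controls between 558 and 695. Pck1, which serves the making of glycerol for triglyceride in fat cells, ranked 11 at r = 0.929. It read 116, 46.6, 947 and 872 in hyperthyroid rats and 184 to 228 in controls.

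Markers of other cells of the orbit were summed by list on each array, after signals had been set to at least 1. For 8 genes of fat stroma and fibroblasts the summed signal ran from 11520 to 32233 on hyperthyroid arrays and from 16698 to 30472 on controls, with 11520 on hyperthyroid 2 and 32233 on hyperthyroid 5, the ends seen for Adipoq. For 6 macrophage and leukocyte genes the ranges were 391 to 1250 and 576 to 895, again with hyperthyroid 2 lowest and hyperthyroid 5 highest. The stroma sum was mostly Dcn and Col3a1, which read 12535 and 13279 on hyperthyroid 5, while Lum (931) and Pdgfra (604) were lowest there. The median correlation with the marker profile was -0.089 for the 7 tested stroma genes and 0.549 for the 5 tested leukocyte genes. In log2 difference 1 stroma gene was above 0 and 6 below, against 2 and 3 leukocyte genes, and none passed. In the stroma list Lum, a matrix proteoglycan, stood at -0.92 ± 0.29 (SE; adjusted p = 0.317 in limma), Thy1, a surface protein of stromal cells, at 1.38 ± 0.96 and Col3a1, a fibrillar collagen, at -0.51 ± 0.41, and without hyperthyroid 5 at -0.72, 1.28 and -0.92. In the leukocyte list Ptprc, the common leukocyte antigen, stood at 0.60 ± 0.41, and the macrophage markers Adgre1 and Csf1r at -0.59 ± 0.48 and -0.31 ± 0.31, and without hyperthyroid 5 at 0.46, -0.94 and -0.53.

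For 4 endothelial genes the sums ran from 1345 to 1735 in hyperthyroid rats and from 1120 to 1493 in controls, with the receptor Kdr at 0.59 ± 0.17 (SE; adjusted p = 0.284 in limma), Pecam1 at 0.26 ± 0.18 and Tek at 0.14 ± 0.17. Without hyperthyroid 5 these stood at 0.73 (adjusted p = 0.0703), 0.18 and 0.20. For 6 epithelial genes the sums were 46.7 to 370 and 399 to 980. These sums did not overlap, but the groups overlapped for each of the 4 genes tested (Krt8, Epcam, Cdh1 and Spint1). Krt18 and Krt19 were below the filter and not tested. Krt18 read 1.20 to 22.2 in hyperthyroid rats and 38.6 to 61.7 in controls, without overlap, as did 7.55% of tested probe sets. Krt19 overlapped, at 37.6 on hyperthyroid 1 and 34.3 on control 7. Krt8 stood at -1.66 ± 0.60, Epcam at -2.55 ± 1.30 and Spint1 at -1.29 ± 0.66 (-1.15, -1.49 and -1.41 without hyperthyroid 5). For 5 genes of oligodendrocytes and optic nerve the sums were 110 to 12348 and 6971 to 15585, with hyperthyroid 2 (1121) and hyperthyroid 5 (110) lowest. There Mobp stood at -4.41 ± 1.91, Gfap at -2.84 ± 1.24 and Mog at -2.33 ± 1.14 (-2.38, -1.64 and -1.58 without hyperthyroid 5), and none passed in limma. Hyperthyroid 2 was thus lowest in Adipoq, Cfd and Plin1 and in the sums for stroma and leukocytes. Its sum for oligodendrocyte genes lay below all controls. Single genes did not all follow, with Ptprc above every control there and the brighter Lipe probe set above the control mean. The part of these cell types in the marker levels was not tested.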

How the data were processed

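Each sample was 1 array of total RNA. The authors deposited 1 linear intensity per probe set and array, scaled to a common trimmed mean; the submitters' processing notes name GCOS, and no source used here gives detection calls or filters. Any centring beyond this scaling is unknown; column medians ran from 47.8 to 58.5. Gene names came from the platform annotation: 20826 probe sets had 1 symbol, 436 several and 9780 none, and 57 control probe sets were left out. Of the named probe sets, 20758 were matched by identifier to RefSeq, and 0 symbols changed.

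Intensities were set to at least 1 (0.670% were lower) and taken to log2. Probe sets in the upper 60% by mean were kept (18625, above a signal of about 28.2). The group comparison was a limma 3.58.1 model (R 4.3.3, eBayes with a trend). Its two-sided p-values were adjusted by Benjamini and Hochberg's method over all 18625 probe sets, and 0.05 was the limit. In lists and correlations the brightest probe set stood for the gene. Correlations used exact permutation in Python 3.11.15, two-sided. Separate animals are taken from the design; p-values measure the spread between these arrays, and the number of arrays limits precision.

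The members and lists were chosen with earlier results of these data known. Every member was named, with up to 3 genes of smallest p per list and the 10 genes most like the markers. Cidec, Plin5, Aqp7, Pck1, Xist, Eif2s3y, Lepr, Ucp1, Dcn, Pdgfra, Cdh1, Krt18 and Krt19 were named after their values were seen. Alternatives were quantile normalization, median centring, other filters, 32 added before log2, other eBayes settings, array weights, the Gapdh ratio as a covariate, and leaving out arrays. In simulated data with 200 changed probe sets among 18625, the model for 8 arrays found 32% of the 2-fold changes, 66% of the 4-fold changes and 1 false one.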

Additional observations from a re-analysis of the deposited data

How the results depend on the processing

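No paired analysis was possible because the groups share no replicate number. Over 18 alternatives for 8 arrays and 16 without hyperthyroid 5, limma called 0 of the 8 tested probe sets, except that 1 (Cfd) passed when hyperthyroid 3 was left out as well, so the count ran from 0 to 1. The share of all probe sets passing in that fit is not given here. Signs were less stable: 20 of 143 values over 8 arrays and 12 of 127 without hyperthyroid 5 had the opposite sign of the reported value. With the Gapdh ratio as a covariate, Adipoq was at 1.32, Cfd at 1.64, the brighter Plin1 probe set at 1.08 and Pparg at 0.51 over 8 arrays. Without hyperthyroid 5 this covariate gave 1.63 for Adipoq, 1.17 for Cfd, 0.51 for Fabp4, 1.63 and 1.85 for Plin1 and 0.29 for Pparg. Each had an adjusted p of 0.986 in limma. In that fit the highest ratios fell on hyperthyroid 1 and 2, with hyperthyroid 3 the only other treated array, so group and ratio are hard to separate. Over 8 arrays the covariate also turned Thrsp (0.21), Rbp4 (0.30), Nampt (0.29), Slc2a4 (-0.047), Zic1 (0.13), Col3a1 (0.24) and Adgre1 (0.16). With it Scd passed (2.03, adjusted p = 0.0414 in limma). Without hyperthyroid 1 and 2, which left hyperthyroid 3 and 5 against the controls, Adipoq was at 1.46, Cfd at 1.67, the brighter Plin1 at 1.15 and Pparg at 0.52. Array weights gave 0.043 for Adipoq over 8 arrays and 0.27 for the dimmer Plin1 probe set without hyperthyroid 5. Median centring gave -0.057 for Slc2a4 and -0.11 for Insr, and quantile normalization -0.091 for Insr. The cause of these turns was not tested.

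Leaving out 1 array gave -0.76 to 0.60 for Adipoq, -1.45 to 0.51 for Cfd, -0.28 to 0.57 for Fabp4, -1.03 to 0.56 and -0.16 to 0.86 for Plin1, 0.56 to 1.04 and 0.02 to 0.76 for Lipe, and -0.95 to -0.07 for Pparg. Signs turned without hyperthyroid 1 or 2 or control 7 or 8 for Adipoq, without hyperthyroid 1 or 2 for Cfd, without hyperthyroid 2 for the brighter Plin1, without hyperthyroid 3 or 5 or control 9 for the dimmer Plin1 and without hyperthyroid 5 for Fabp4. With hyperthyroid 5 already out the ranges were -0.52 to 0.15 for Fabp4, -0.016 to 0.84 for the dimmer Lipe and -1.91 to 0.067 and -0.89 to 0.44 for the Plin1 probe sets. For other genes they were -2.20 to 0.17 (Rbp4), -0.00145 to 0.12 (Slc2a4), -0.16 to 0.17 (Insr), -0.79 to 0.36 (Zic1), -3.66 to 0.045 (Myh13), -1.79 to 0.41 (Myh3), 0.37 to 1.87 (Angptl4) and -1.42 to -0.015 (Thrsp). The 7 pairs of genes that passed became 4 without hyperthyroid 1 and 2, 9 with median centring and 5 to 10 with any 1 array left out. Of the 10 genes most like the markers, 3 stayed without hyperthyroid 5. Signal near or below the filter limits Lep and the dimmer Plin1 and Lipe probe sets.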
